A study of Mus musculus with 28 samples.

Results

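The mitochondrial ribosomal protein genes are described here over 28 mouse striatum arrays. They were taken by symbol, as every gene of the platform annotation whose name is Mrpl or Mrps followed by a digit, and no measured value entered the choice except that the brightest transcript cluster with 1 symbol stands for each gene. A transcript cluster is the array's unit for a gene. The rule gave 77 of the 19946 genes on the array, 48 named for the large and 29 for the small subunit. Mrpl53 was left out because its cluster also carries the symbol Ccdc142. Only Mrpl27 and Mrps23 lie in the A/J segment that separates the mouse groups, and they are set against the other 75 members.

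The study compared B6.A/J congenic mice, C57BL/6J (B6) animals with a stretch of A/J genome from 84 to 96 Mb, with B6 mice in RNA of both striata pooled per mouse. Heterozygous congenic mice (n = 6) carried 1 A/J copy and were compared with their B6 littermates (n = 6). Homozygous congenic mice (n = 8) carried 2 A/J copies and were compared with B6 control mice (n = 8) that were not their littermates. Heterozygous and littermate mice formed batch 1 and were 41 to 68 days old, with 3 females and 3 males per group. Homozygous mice were 52 to 57 days old and B6 controls 61 to 63 days old, with 4 females and 4 males per group, and formed batch 2. No mouse had received a drug. In batch 2, genotype, age and breeding cannot be told apart. Any A/J sequence that the congenic strain carries elsewhere cannot be told apart from the segment. The deposited values are log2 expression values adjusted between the batches, so levels are set side by side within a batch only. The number of arrays limits the precision.

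The mitochondrial ribosome makes the few proteins encoded by mitochondrial DNA, all of them subunits of the respiratory chain complexes and of ATP synthase. Its proteins are encoded in the nucleus, made in the cytosol and imported. The small subunit binds and decodes the mRNA and the large subunit joins the amino acids. Some proteins have counterparts in bacterial ribosomes, whereas others exist only in mitochondria. Mrpl27 encodes a large subunit protein whose bacterial counterpart reaches toward the peptidyl transferase centre, where the peptide bond forms. Mrps23 encodes a mitochondrion-specific protein of the small subunit. Neurons of the striatum depend on oxidative phosphorylation, the process that these ribosomes supply with subunits.

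The promoters of both segment members are shown because the A/J segment replaces this DNA in congenic mice. The letters are the B6 reference of RefSeq (GRCm38.p6), from 250 bases before the annotated start to 25 after it. The Mrpl27 window is chr11:94653541-94653815 and the Mrps23 window is chr11:88204138-88204412, both on the + strand. Capitals mark a match to CCGGAAG, letters bound by ETS factors such as GABPA, on either strand. It starts at base -55 of Mrpl27 and, in reverse complement, at base 16 after the start of Mrps23.
Mrpl27: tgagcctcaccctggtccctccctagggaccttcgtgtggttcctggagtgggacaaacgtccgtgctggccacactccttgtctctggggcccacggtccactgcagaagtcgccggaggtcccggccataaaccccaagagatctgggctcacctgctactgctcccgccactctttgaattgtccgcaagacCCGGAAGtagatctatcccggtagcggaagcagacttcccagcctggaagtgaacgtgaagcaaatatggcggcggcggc
Mrps23: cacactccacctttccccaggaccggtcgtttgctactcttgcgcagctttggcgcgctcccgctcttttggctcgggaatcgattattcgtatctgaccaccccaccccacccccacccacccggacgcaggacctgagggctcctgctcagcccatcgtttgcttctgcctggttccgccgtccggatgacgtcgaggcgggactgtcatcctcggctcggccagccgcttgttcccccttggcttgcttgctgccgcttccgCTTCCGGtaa

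The signal of the brighter Mrpl27 cluster, which stands for the gene, was lower in congenic than in B6 mice. The difference was -0.16 on the log2 scale over all 28 arrays, a fold of 0.895 (95% interval 0.861 to 0.930). In heterozygous mice the brighter Mrpl27 cluster (10454093) read 9.27, 9.28 and 9.44 as lowest, median and highest log2 value, against 9.32, 9.45 and 9.54 in their B6 littermates. In homozygous mice it read 9.20, 9.30 and 9.38, against 9.41, 9.48 and 9.56 in B6 controls. All 8 homozygous arrays were thus below all 8 control arrays, while 2 heterozygous arrays lay within the range of the littermates. Group means were 9.31 ± 0.067 in heterozygous mice and 9.44 ± 0.084 in littermates (SD, n = 6 each). They were 9.29 ± 0.058 in homozygous mice and 9.48 ± 0.054 in B6 controls (SD, n = 8 each). It was the only member whose homozygous and control groups did not overlap. In that comparison 0.1% of all genes had groups without overlap, 0.0902% with the congenic group lower.

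The carriers, all 14 congenic mice, were compared with all 14 B6 mice in a limma model that adjusts for batch and sex, and a gene was called at a Benjamini-Hochberg adjusted p under 0.05 over all genes. Mrpl27 was the only member called (log2 difference -0.16, SE 0.027, adjusted p = 0.0102, limma), and 13 of 14 carriers were below the mean of their batch's B6 mice. Calls were made for 0.0201% of all genes, namely 4 genes, and 0.015% were called lower. The other 3 called genes also lie in the segment. Of its 130 tested genes other than Mrpl27 and Mrps23, 25 (19.2%) stood at an unadjusted p under 0.05, 16 higher and 9 lower. Mrpl27 was not called in 3 of 43 other settings, namely with replicate number as a block (adjusted p = 0.0956, limma) and in each batch alone. By batch, the difference was -0.12 in heterozygous mice (SE 0.041, adjusted p = 1.0, limma) and -0.19 in homozygous mice (SE 0.035, adjusted p = 0.0905, limma). The homozygous effect minus the heterozygous effect was -0.06 (95% interval -0.17 to 0.05, adjusted p = 0.999, limma), so an effect of A/J copy number was not shown. In the authors' deposited table the cluster has p = 5.84e-07 and q = 0.00307.

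A second, dimmer Mrpl27 cluster (10380411) showed a difference of nearly the same size. It read 6.15, 6.24 and 6.33 as lowest, median and highest value in heterozygous mice, against 6.25, 6.37 and 6.49 in B6 littermates. It read 6.17, 6.20 and 6.28 in homozygous mice, against 6.27, 6.40 and 6.49 in B6 controls. Both pairs of groups overlapped, although all 14 carriers were below the mean of their batch's B6 mice. With every cluster tested separately, the difference over all arrays was -0.15 (SE 0.031, adjusted p = 0.123, limma), and 0.0184% of 21797 clusters were called. It was -0.12 in heterozygous mice (SE 0.047) and -0.18 in homozygous mice (SE 0.041), comparisons in which 0.0% and 0.00459% of clusters were called. Without B6 control 1 alone, the difference over all arrays was -0.16 and passed the threshold (adjusted p = 0.0383, limma). The authors' deposited table gives it p = 1.78e-05 and q = 0.0454.

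The 2 Mrpl27 clusters differed in what the array design says of them. Cluster IDs of this array follow the genome, and 20 of the 20 nearest IDs around the dimmer cluster belong to chromosome 11, where the gene lies. Around the brighter cluster, 19 of the 20 nearest IDs belong to chromosome 18. The authors masked probes that cover coding differences between A/J and B6. By the order of ID numbers, 3 of these fall to the dimmer cluster and 0 to the brighter one. The 0 follows from an ID that lies outside those of chromosome 11. The same matching gave 1 masked probe to Mrps34 on chromosome 17, so it is approximate. Which cluster the masked probes belong to was not tested otherwise. Deviations of the 2 clusters from their group means showed no correlation past the threshold over the 28 arrays (r = 0.0969, permutation p = 0.658, adjusted 0.752). The rank correlation was 0.118 (permutation p = 0.582, adjusted 0.776). Without the 2 arrays farthest from the median, r was 0.117. Which transcripts each cluster binds was not tested, nor whether further sequence differences lie under its probes.

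With 1 cluster per gene, Mrps23 RNA had the second smallest p-value of the family and was not called. In heterozygous mice it read 8.89, 8.95 and 9.02 as lowest, median and highest value, against 8.95, 9.08 and 9.16 in littermates. In homozygous mice it read 8.86, 9.01 and 9.04, against 8.90, 9.09 and 9.22 in B6 controls. Both pairs of groups overlapped through 1 littermate and 2 B6 control arrays, yet all 14 carriers were below the mean of their batch's B6 mice. The difference was -0.11 over all arrays (SE 0.030, 95% interval -0.17 to -0.05, unadjusted p = 0.00125, adjusted p = 0.75, limma). It was -0.12 in heterozygous mice (SE 0.047) and -0.10 in homozygous mice (SE 0.041). The authors masked 2 probes of this cluster (10380238), matched by ID, and their deposited table gives p = 0.000777 and q = 0.373.

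**Figure D1:**
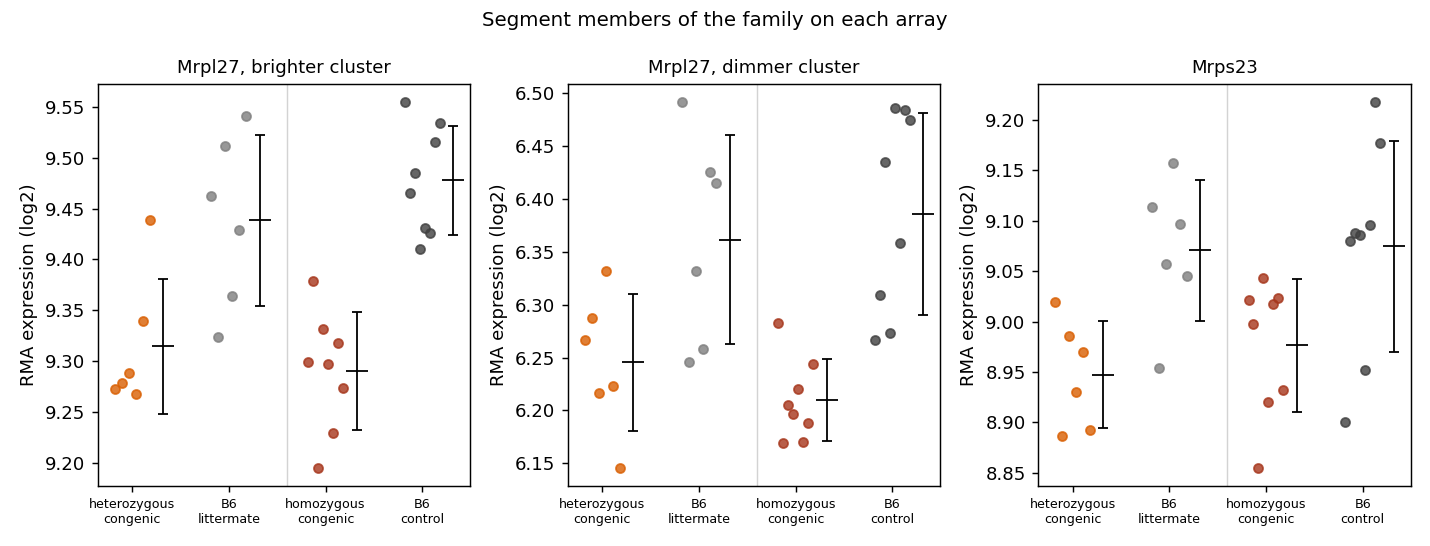
Log2 RMA expression of the brighter Mrpl27 cluster, the dimmer Mrpl27 cluster and Mrps23 on each of the 28 arrays, with the group mean and SD to the right of the points and a line between the batches. For the brighter Mrpl27 cluster the homozygous arrays end at 9.38 and the B6 controls start at 9.41; the other pairs of groups overlap.

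Over both batches together, both segment members stood lower in congenic mice relative to the rest of the family. Not every test within a batch passed the threshold, and the other members were not tested in this way. For each array the mean of the other 75 members was subtracted, and groups were compared by exact 2-sided permutation tests within a batch, adjusted over 9 tests. The brighter Mrpl27 cluster exceeded that mean by 0.52 ± 0.044 in homozygous mice and by 0.69 ± 0.053 in B6 controls (SD, n = 8 each), a difference of -0.17 (exact p = 0.000155, adjusted p = 0.00051). It was -0.10 in heterozygous mice relative to littermates (exact p = 0.026, adjusted p = 0.0334). Over both batches, with 100000 permutations within batch, it was -0.14 (p = 1e-05, the smallest they can give; adjusted p = 9e-05). The dimmer cluster differed by -0.15 in homozygous mice (exact p = 0.000466) and by -0.09 in heterozygous mice (exact p = 0.0801). Its value over both batches was -0.13 (permutation p = 0.00017, adjusted p = 0.00051). Mrps23 differed by -0.10 in heterozygous mice (exact p = 0.0195, adjusted p = 0.0292) and by -0.08 in homozygous mice (exact p = 0.0629, adjusted p = 0.0708). Over both batches it was -0.09 (permutation p = 0.00291, adjusted p = 0.00524).

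Most members outside the segment also read slightly lower in carriers, but none was called. Of the 77 members, 59 (76.6%) had a difference below 0 in carriers relative to B6 mice, while 40.8% of all genes did. The median difference was -0.02 for the other 75 members and 0.01 for all genes, and the other members ranged from -0.14 to 0.06. At an unadjusted p under 0.05 stood 8 members, all of them lower. Of all genes 5.3% stood there, 1.98% lower and 3.33% higher. Without any 1 array, between 55 and 61 members were lower. With each array centred on its median, 65 were lower, and with quantile normalization 61. These counts describe the list, since its members share arrays and vary together.

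Among large subunit members, Mrpl22 differed most outside the segment. This protein's bacterial counterpart lines the tunnel through which the new peptide leaves. It read 7.36, 7.45 and 7.50 as lowest, median and highest value in heterozygous mice, against 7.52, 7.61 and 7.85 in littermates, without overlap. In homozygous mice it read 7.29, 7.46 and 7.79, against 7.41, 7.63 and 7.67 in B6 controls, with the highest value in a homozygous mouse. Its difference over all arrays was -0.14 (SE 0.049, adjusted p = 0.836, limma), and 11 of 14 carriers were below their batch's B6 mean. It lies on chromosome 11 outside the segment.

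Mrpl40 encodes a mitochondrion-specific large subunit protein. Its lowest, median and highest values were 10.28, 10.32 and 10.46 in heterozygous mice, against 10.34, 10.44 and 10.51 in littermates. They were 10.32, 10.35 and 10.46 in homozygous mice, against 10.29, 10.44 and 10.54 in B6 controls. The groups overlapped in both batches, and the difference was -0.08 (SE 0.026, adjusted p = 0.836, limma). Mrpl41, also mitochondrion-specific, differed by -0.09 (SE 0.032), and Mrpl45, which helps to hold the ribosome to the inner membrane, by -0.10 (SE 0.043). Mrpl16, the counterpart of a bacterial protein near the tRNA binding sites, differed by -0.07 (SE 0.029). Mrpl17 (-0.05, SE 0.026) and Mrpl34 (-0.06, SE 0.029), which also have bacterial counterparts, were just above an unadjusted p of 0.05. In the small subunit, mitochondrion-specific Mrps22 differed by -0.07 (SE 0.032), and Mrps7, the counterpart of a bacterial head protein, by -0.05 (SE 0.026). In the other direction, Mrpl2, the counterpart of a core bacterial protein near the catalytic centre, differed by 0.05 (SE 0.028) and Mrpl10, a stalk protein, by 0.06 (SE 0.031).

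**Figure D2:**
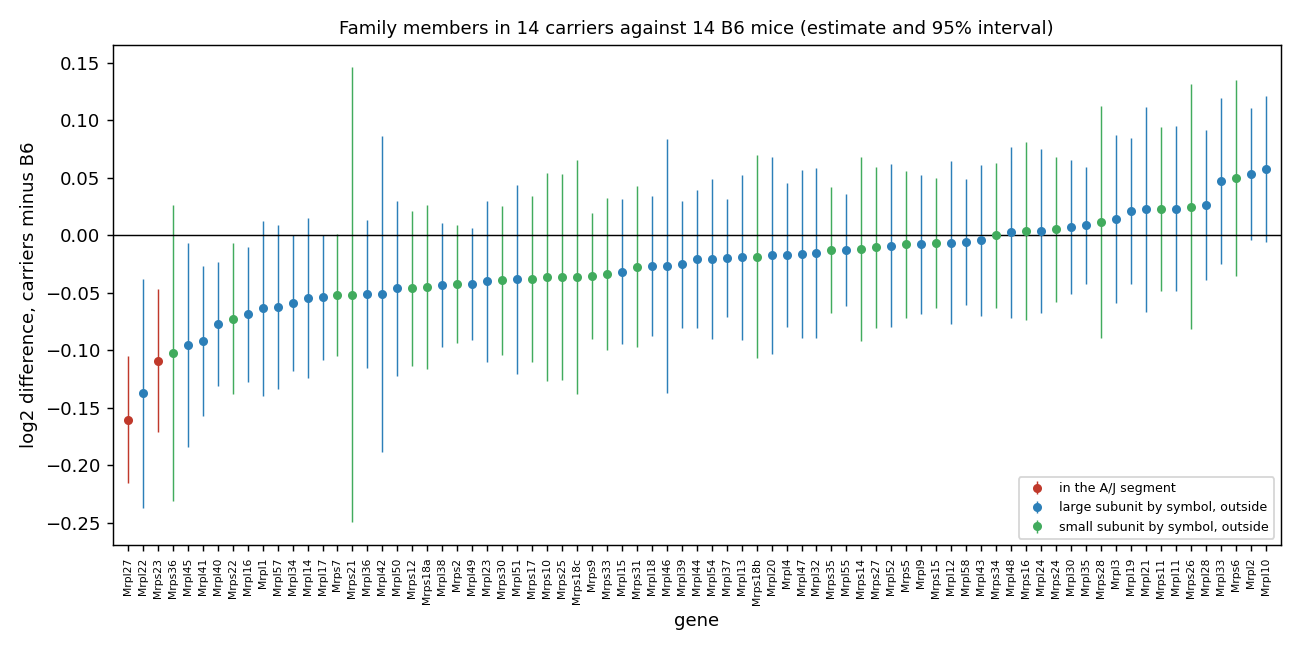
Log2 difference of each of the 77 members, carriers minus B6, with its 95% limma interval, ordered by size and coloured by segment membership and subunit. Mrpl27 is lowest at -0.16, Mrpl10 highest at 0.06, and 59 points lie below 0.

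Of the 77 members, 11 lie on chromosome 11, more than on any other of the 17 chromosomes that hold members. Whether this exceeds the chromosome's share of all genes was not tested. Of the 9 members on chromosome 11 outside the segment, 7 (77.8%) were lower in carriers, with a median difference of -0.01. This share is near that of all 75 members outside the segment, of which 57 (76.0%) were lower. Mrpl10 is the only member within 50 genes of the segment, on its distal side. The limit of 50 genes was set for this description. Mrpl45, lower in carriers as given above, lies on chromosome 11 outside that limit. Its cluster ID (10380751) is close to that of Mrpl10 (10380732). Mrpl10 read 10.14, 10.16 and 10.25 in heterozygous mice, against 10.01, 10.11 and 10.23 in littermates. In homozygous mice it read 10.07, 10.18 and 10.36, against 10.07, 10.12 and 10.27 in B6 controls. Its groups overlapped, and 12 of 14 carriers were above their batch's B6 mean (adjusted p = 0.933, limma).

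The comparison was then split by batch, so each contrast sets the groups of 1 batch against each other. Both contrasts come from 1 model over all 28 arrays and share its estimate of the spread and its sex term. The values were also adjusted between the batches, so the contrasts are not independent tests. In heterozygous mice relative to littermates, 60 of 77 members were lower, and the median of the other 75 members was -0.03. Lower were 48.4% of all genes and 56.0% of genes at or above the median gene in level. No member was called, nor was any other gene (0.0% of all genes called). Lower at an unadjusted p under 0.05 were 6 members, namely Mrpl27, Mrpl22 (-0.20, SE 0.074), Mrps23, Mrpl40 (-0.10, SE 0.041), Mrps9 (-0.09, SE 0.039) and Mrpl15 (-0.09, SE 0.045). Of all genes 3.68% were at that level, 1.4% lower and 2.28% higher, and 0 members were higher. Mrps9 is the counterpart of a bacterial small subunit protein at the tRNA path, and Mrpl15 that of a large subunit protein. Mrpl22 was the only member whose groups did not overlap, as was the case for 0.155% of all genes, 0.0602% with the congenic group lower.

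In homozygous mice relative to B6 controls, 53 of 77 members were lower, while 38.5% of all genes were, and the median of the other 75 was -0.02. No member was called, and 0.00501% of all genes were. At an unadjusted p under 0.05 stood 5 members, and 6.24% of all genes. Lower were Mrpl27, Mrps23 and Mrpl16 (-0.09, SE 0.038), along with 3.04% of all genes. Higher were Mrpl33 (0.12, SE 0.042) and Mrpl2 (0.09, SE 0.036), and 3.19% of all genes were higher at that level. Mrpl33 encodes a small protein with a bacterial counterpart in the large subunit.

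Mrpl33 read 7.76, 7.93 and 8.06 in homozygous mice, against 7.76, 7.81 and 7.89 in B6 controls. In heterozygous mice it read 7.68, 7.88 and 7.93, against 7.78, 7.89 and 7.96 in littermates. Homozygous values spread upward from the control range, while heterozygous and littermate values covered much the same range. The homozygous effect minus the heterozygous effect of Mrpl33 was 0.18 (SE 0.064, 95% interval 0.04 to 0.31, unadjusted p = 0.0105, adjusted p = 0.814, limma). It was the only member under an unadjusted p of 0.05 in this contrast, where 5.07% of all genes were (2.66% below 0 and 2.41% above it) and 0.0% were called. The contrast was below 0 for 35 of 77 members and for 44.7% of all genes. Next by p came Mrpl13 (-0.14, SE 0.067), Mrps9 (0.10, SE 0.052), Mrpl15 (0.11, SE 0.060) and Mrps18b (-0.15, SE 0.084), none of them called.

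Members lower in both comparisons numbered 41 of 77 (53.2%), and 18.4% of all genes were lower in both. A further 19 were lower only in heterozygous mice, 12 only in homozygous mice, and 5 in neither. The sizes of the 2 differences were nearly unrelated over the 77 members (r = 0.11, a description, since members share their arrays), and r was 0.00032 without Mrpl27 and Mrps23.

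**Figure D3:**
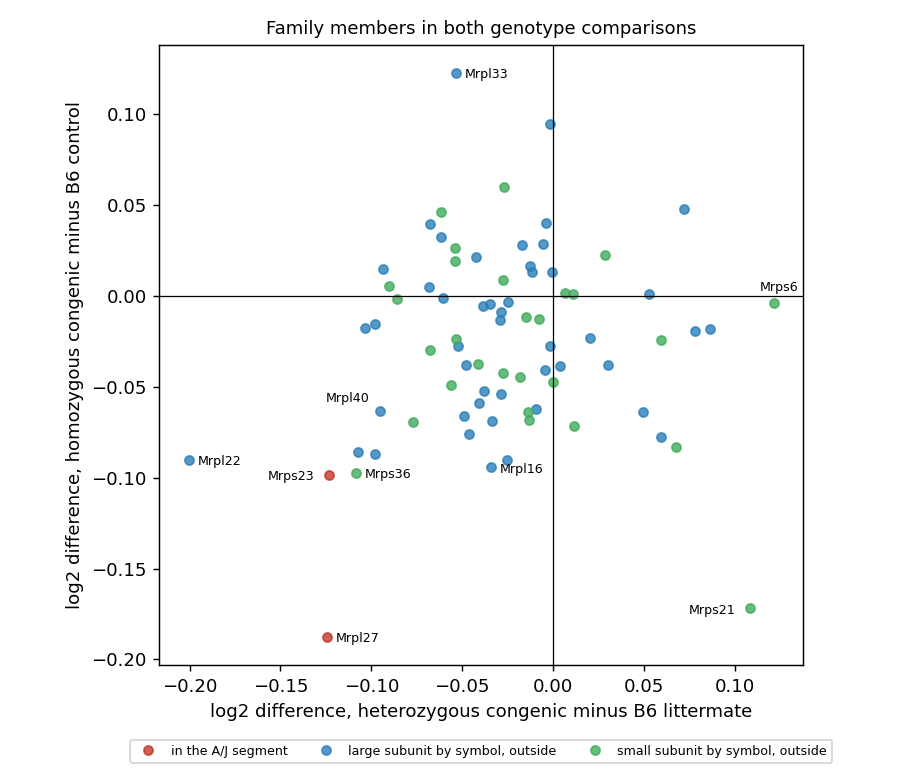
Each point is 1 of the 77 members, placed by its log2 difference in heterozygous mice relative to B6 littermates (horizontal) and in homozygous mice relative to B6 controls (vertical). Mrpl27 stands alone at -0.12 and -0.19, and 41 points lie below 0 on both axes.

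By subunit and origin, the share of members on the lower side was largest for mitochondrion-specific proteins. The medians of the small subunit classes in carriers ran the other way. In carriers relative to B6 mice, 16 of 17 such large subunit members (median -0.04) and 8 of 9 such small subunit members (median -0.03) were lower. Among members with bacterial counterparts, 18 of 29 of the large subunit (median -0.02) and 11 of 15 of the small subunit (median -0.04) were lower. In homozygous mice, 15 of 17 and 7 of 9 mitochondrion-specific members were lower, with 17 of 29 and 8 of 15 of those with bacterial counterparts. In heterozygous mice, 14 of 17 and 8 of 9 were lower, with 23 of 29 and 10 of 15. Of all genes, 40.8% were lower in carriers, 38.5% in homozygous mice and 48.4% in heterozygous mice. The difference between classes was not tested. The classes follow protein homology, so Mrps30, named for the small subunit, counts with the large one, and 7 members were assigned to none.

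Genes for 2 other groups of protein complexes were read alongside. Of 61 cytosolic ribosomal protein genes, 39 were lower in carriers (median -0.02), and of 81 nuclear genes for oxidative phosphorylation subunits, 53 were (median -0.02). None of either list was called in carriers, where 0.0201% of all genes were. In heterozygous mice 35 of the 61 (median -0.02) and 58 of the 81 (median -0.03) were lower. In homozygous mice 39 of the 61 and 49 of the 81 were lower, each with a median of -0.01. Lower in both comparisons were 24 of the 61 and 36 of the 81. Genes at or above the median gene in level had a median of 0.009 in carriers. Their median was -0.007 in heterozygous and 0.02 in homozygous mice, where 33.1% of them were lower.

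Other genes of mitochondrial translation were described by the same counts, and 0 of their measured members were called in any of the 3 genotype comparisons. Of all genes, 0.0201% were called in carriers, 0.0% in heterozygous and 0.00501% in homozygous mice, so a count of 0 does not set these lists apart. Of the 6 measured genes for further ribosomal proteins, 2 of which (Mrpl57 and Mrpl58) are also members, 5 were lower in carriers (median -0.005). Of 13 translation factors, 4 were lower and 9 higher in carriers (median 0.01), whereas 9 were lower in heterozygous mice (median -0.02) and 5 in homozygous mice (median 0.02). The smallest p belonged to Qrsl1, a subunit of the glutaminyl-tRNA amidotransferase (0.06, SE 0.032), and Tufm, the elongation factor Tu of mitochondria (-0.06, SE 0.033). Of 18 tRNA synthetases, 9 were lower (median 0.01), with Tars2 at 0.06 (SE 0.028) and Fars2 at 0.04 (SE 0.027). Of 20 ribosome assembly factors, 11 were lower (median -0.005), with the GTPase Mtg2 at 0.06 (SE 0.029) and the rRNA methyltransferase Nsun4 at -0.06 (SE 0.034). Of 8 genes for mitochondrial transcription and mRNA handling, 4 were lower in carriers (median -0.002), 6 in heterozygous mice (median -0.02) and 3 in homozygous mice (median 0.01). In carriers, the smallest p belonged to the DNA-packaging factor Tfam at -0.10 (SE 0.055) and the Cox1 translation activator Taco1 at 0.04 (SE 0.025).

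The mean over the 75 members outside the segment differed little between groups. It was 8.75 ± 0.010 in heterozygous mice and 8.78 ± 0.027 in littermates (SD, n = 6 each), and 8.77 ± 0.029 in homozygous mice and 8.79 ± 0.031 in B6 controls (SD, n = 8 each). The groups overlapped in both batches, and the highest single value, 8.86, belonged to B6 control 7. Without that array, 46 members were lower in homozygous mice.

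Markers of spiny projection neurons, the main neurons of the striatum, were high on all arrays, with 13 of 15 measured and array means from 10.99 to 11.62 on the log2 scale. Of the other brain cell lists, the median difference in carriers was lowest for 5 subcortical excitatory neuron markers (-0.06) and highest for 5 cortical excitatory neuron markers (0.05). Some lists moved in opposite directions in the batches. Choroid plexus markers were lower for 6 of 6 in heterozygous mice (median -0.07) and higher for 6 of 6 in homozygous mice (median 0.08). Endothelial markers were higher for 4 of 4 in heterozygous mice (median 0.05) and lower for 4 of 4 in homozygous mice (median -0.05). None of these genes was called, while 0.0201% of all genes were in carriers, 0.0% in heterozygous and 0.00501% in homozygous mice. The part of these markers in the results by batch was not tested. Hepatocyte genes, which brain tissue largely lacks, varied widely in batch 2. The mean over 23 of 25 listed genes was 7.26 to 9.81 in homozygous mice and 6.81 to 11.08 in B6 controls, with B6 control 1 highest. Among batch 2 arrays, B6 control 1 also had the lowest means of spiny neuron markers (10.99) and oligodendrocyte markers (10.82). Its mean of astrocyte markers (10.05) lay within the range of the other B6 controls. In batch 1 the hepatocyte mean was 8.06 to 8.33 in heterozygous mice and 8.10 to 8.25 in littermates. Values were adjusted between the batches, so these levels cannot be set against those of batch 2. Of the 23, 21 were higher in homozygous mice (median 0.34), and 0 were called. Without B6 control 1, Mrpl27 differed by -0.15 in carriers (adjusted p = 0.0199, limma), Mrps23 by -0.12 (adjusted p = 0.236, limma), and 60 of 77 members were lower. The part of this RNA in the results of batch 2 was otherwise not tested. In pooled tissue, fewer cells of a type and less RNA per cell cannot be told apart.

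**Figure D4:**
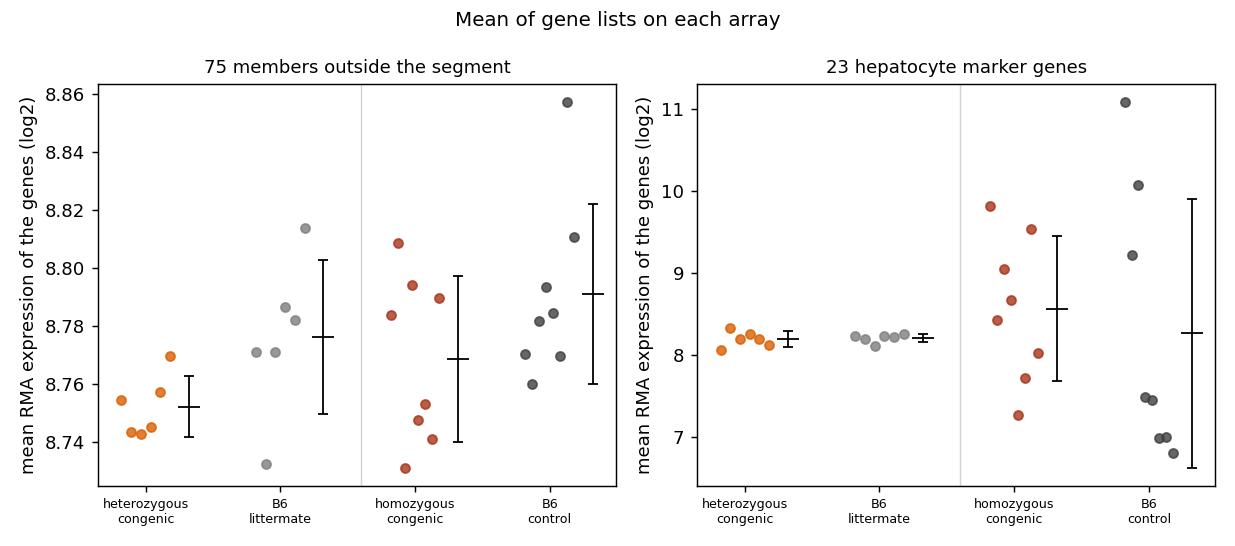
Mean log2 RMA expression over the 75 members outside the segment (left) and over 23 hepatocyte marker genes (right) on each array, with group mean and SD and a line between the batches. The family mean stays between 8.73 and 8.86, whereas the hepatocyte mean runs from 6.81 to 11.08 among B6 controls. Levels are to be compared within a batch only.

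Of the 77 genes, 8 have a pair of clusters with 1 symbol, and the pairs did not always give the same difference. For Mrpl41 the brighter cluster differed by -0.09 (SE 0.032) and the dimmer one by 0.04 (SE 0.034) in carriers. For Mrpl51 the dimmer cluster differed by -0.10 (SE 0.026) and the brighter, which stands for the gene, by -0.04 (SE 0.040). Deviations from group means were correlated over 28 arrays for Mrps36 (r = 0.984, rho = 0.978), Mrpl23 (r = 0.954, rho = 0.927), Mrps33 (r = 0.820, rho = 0.785) and Mrpl41 (r = 0.661, rho = 0.630). Over the 8 pairs, permutation p-values for r adjusted to at most 0.00076 for these 4 and to at least 0.565 for Mrpl27, Mrpl47, Mrpl51 and Mrps5. Those for rho adjusted to at most 0.00148 for the same 4 genes and to at least 0.776 for the other 4. Without the 2 arrays farthest from the median, r was 0.981 for Mrps36, 0.951 for Mrpl23, 0.790 for Mrps33 and 0.605 for Mrpl41.

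The brightest cluster lay among IDs of a chromosome other than its gene's for 4 of 77 members (5.19%), and for 1.64% of the 19856 genes with a position. Besides Mrpl27 these were Mrpl41 (gene on chromosome 2, IDs of chromosome 7), Mrpl48 (7 and 4) and Mrps33 (6 and 7). Mrpl48 differed by 0.0025 in carriers (SE 0.036) and Mrps33 by -0.03 (SE 0.032). Where such clusters' probes match the genome was not tested.

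**Figure D5:**
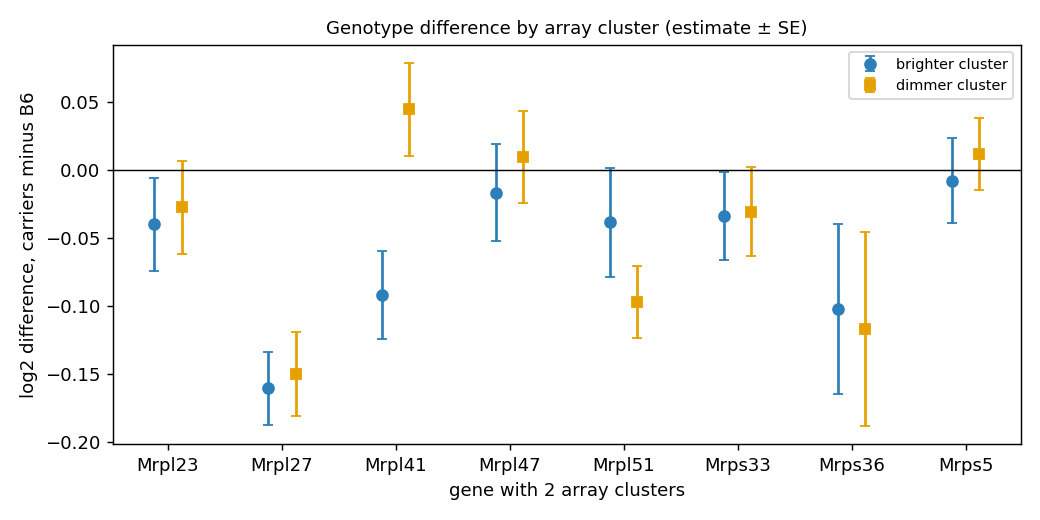
Log2 difference, carriers minus B6, with its SE, for the brighter and the dimmer cluster of the 8 members that have both. The clusters of Mrpl27 lie together at -0.16 and -0.15, while those of Mrpl41 lie on opposite sides of 0.

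Intensities depend on each cluster's probes, so they are given to place the members on the array's scale and not as relative RNA amounts. The mean over all arrays was highest for Mrps21 (10.50), Mrpl40 (10.40), Mrpl10 (10.15), Mrpl23 (9.97) and Mrpl48 (9.95). It was lowest for Mrpl42 (6.93), Mrps30 (7.05), Mrpl47 (7.25), Mrpl22 (7.53) and Mrps27 (7.56). The mean of the median gene was 7.83, and 70 of 77 members were above it. The spread within groups was small, with a median SD of 0.0857 for the family and 0.0983 for genes at or above the median gene. It was largest for Mrps21 (0.266), Mrpl42 (0.189), Mrps36 (0.176), Mrpl46 (0.148) and Mrps26 (0.146), and smallest for Mrpl55 (0.0571), Mrpl35 (0.0590) and Mrps2 (0.0595). Mrps21 averaged 10.58 ± 0.398 in heterozygous mice and 10.47 ± 0.265 in littermates (SD, n = 6 each), and 10.40 ± 0.221 in homozygous mice and 10.57 ± 0.172 in B6 controls (SD, n = 8 each). Mrps36, now regarded as a subunit of the 2-oxoglutarate dehydrogenase complex, differed by -0.10 in carriers (SE 0.063).

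Females and males did not differ in any member at the threshold, and 0.0551% of all genes were called, 0.0301% lower in females. Lower in females at an unadjusted p under 0.05 were Mrpl49 (-0.06, SE 0.024), Mrps12 (-0.08, SE 0.033) and Mrpl16 (-0.06, SE 0.029), and 0 were higher. Of all genes 7.34% were at that level, 4.15% lower and 3.19% higher. Mrps12, the counterpart of a bacterial decoding centre protein, and the other 2 were each below their group's male mean in 12 of 14 females. Next by p came Mrps14 (0.08, SE 0.039) and Mrpl37 (-0.05, SE 0.025). Of the 77 members 33 were lower in females, with a median of 0.0036, and 46.8% of all genes were. All 13 measured spiny neuron markers were lower in females (median -0.13, 10 at an unadjusted p under 0.05, 0 called). So were 6 of 6 oligodendrocyte markers (median -0.09), while 5 of 5 cortical excitatory neuron markers were higher (median 0.13), and 0 of either list were called. Their part in these differences was not tested. Mrpl27 differed by 0.02 (SE 0.027) and Mrps23 by -0.02 (SE 0.031) between the sexes.

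Promoter windows of 300 bases, from 250 before the start to 50 after it, were at hand for 68 of the 77 members (74 windows). They were searched on both strands for letters bound by factors known to drive nuclear genes for mitochondrial proteins. CCGGAAG was in 25 windows (33.8%) and in 8.86% of all 32851 windows. The NRF1 motif was in 13 (17.6%) and in 4.60% of all, and the YY1 motif in 5 (6.76%) and in 0.633% of all. At least 1 of the 3 was in 37 of the 74 windows and in 13.0% of all, and 0 matches of different names overlapped. Both segment members hold CCGGAAG, like 33.8% of the family's windows. Of 21263 windows of protein-coding genes, 11.6% held CCGGAAG, 6.38% the NRF1 motif, 0.889% the YY1 motif and 17.3% at least 1 of them. A match is not evidence that the factor binds.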

How the data were processed

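Each of 28 Mouse Gene 1.0 ST arrays holds the striatal total RNA of 1 mouse. The deposited log2 values are RMA summaries; Affymetrix Expression Console is the tool listed in the submitters' processing notes, without a version. Per the deposited notes, probes over coding SNPs from 84 to 96 Mb of build 37 were masked (145 probes), and ComBat then removed the batch effect. The authors' deposited p-values come from t-tests of B6 against congenic arrays. The authors' deposited q-values come from the QVALUE program. Values were used as deposited, and 0 sample columns were unmatched.

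Of 35556 clusters, 21797 have 1 symbol. Genes were tested with limma 3.58.1 in R 4.3.3 (lmFit and eBayes, 2-sided, Benjamini-Hochberg over 19946 genes, threshold 0.05). Carriers were compared with B6 mice with batch and sex as terms. For the other contrasts, the 4 groups and sex were fitted together. Permutation tests used scipy 1.17.1. The limma steps were tested on simulated data. The segment was taken by gene order, from Acaca to Calcoco2 on chromosome 11 of GRCm38.p6 (264 genes, 132 tested). That chromosome is known from the study, not from the labels. The replicates are separate mice, per the labels.

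The members and lists were chosen with earlier results of these data known. Named were both segment members, flank members, for carriers up to 12 uncalled members by p and up to 5 for each other contrast, the extremes of level and spread, members with disagreeing cluster IDs, and 2 genes per pathway list. The other genes with a pair of clusters were named after their values were seen. The alternatives were the covariates, normalization, filter on dim genes, cluster choice, coding of genotype, variance model, replicate block, each batch alone, the authors' p-values and leaving out each array.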

Additional observations from a re-analysis of the deposited data

Results flagged for a closer look

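The 36 named members, the dimmer Mrpl27 cluster and the family mean were screened for an array far from its group, in 152 sets of 6 or 8 arrays. In 8 of them the highest or lowest value stood apart by Dixon's rule, which chance meets in about 1 of 20 groups. B6 control 1, the array with the highest hepatocyte mean, held 4 of the 8. It had the highest Mrpl15 value of its group (8.71, next 8.53) and the lowest of Mrpl37 (9.42, next 9.61), Mrpl55 (9.00, next 9.15) and Mrps26 (7.50, next 7.80). B6 control 5 had the lowest Mrps12 value (7.79, next 7.92). Heterozygous mouse 2 had the lowest Mrpl45 value of its group (7.90, next 8.05). Among B6 littermates, mouse 4 had the highest Mrpl55 value (9.30, next 9.20) and mouse 2 the lowest Mrps36 value (7.76, next 8.02). Neither Mrpl27 nor Mrps23 had such an array.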

How the results depend on the processing

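The carriers difference of Mrpl27 stayed below 0 and called in 40 of 43 other settings. It was not called with the replicate block (-0.16, adjusted p = 0.0956, limma; 0 members called), in batch 1 alone (-0.12, adjusted p = 0.999; 0 called) or in batch 2 alone (-0.19, adjusted p = 0.0851; 0 called), both of which use fewer arrays. Replicate numbers were not taken to pair the mice, since the labels give them no shared source. Correlations of same-numbered pairs do not settle this. In batch 1, 3 of 6 pairs (-0.07 to 0.17) and in batch 2, 6 of 8 (-0.52 to 0.69) had r over 0.1. Same-numbered mice of batch 2 also share sex, which was left in these values, so pairing and sex cannot be told apart. Hepatocyte RNA was left in as well. The hepatocyte means were 9.81 and 11.08 in homozygous mouse 1 and B6 control 1 (r = 0.69). They were 9.53 and 7.00 in homozygous mouse 7 and B6 control 7 (r = -0.52), who also share sex. The part of hepatocyte RNA in these correlations was not tested. Over all arrays, the call of Mrpl27 rests on leaving out the replicate block. A shared source for some numbers in batch 2 was not tested otherwise. Without each array in turn Mrpl27 ranged from -0.17 to -0.15 (adjusted p 0.00274 to 0.0278), with 1 member called each time, and Mrps23 from -0.12 to -0.10 (adjusted p 0.236 to 1.0). The dimmer Mrpl27 cluster ranged from -0.16 to -0.14 without each array, and with array weights it was -0.16 and called (adjusted p = 0.0177). In homozygous mice, 1 member, Mrpl27, was called with age as a covariate (-0.22), array centring (-0.20), quantile normalization (-0.20), the mean of a gene's clusters (-0.18) and only genes at or above the median gene (-0.19). Homozygous mice were 52 to 57 and B6 controls 61 to 63 days old. These ages do not overlap, so the age covariate cannot separate age from genotype there. For Mrps23 no setting made a call, and no difference of either gene changed sign. Background correction was not varied, since only summarized values were used here. The number of arrays, the masking of coding SNPs alone and the adjustment for batch limit these values.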
